A study of Mus musculus with 2 samples.

Results

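The keratin genes were read in a 5hmC-Seal profile of mouse male germ cells. Members were the protein-coding genes of the mm10 annotation whose symbol is Krt followed directly by a number, 53 of 21779 protein-coding genes. Keratin-associated protein genes (Krtap) were not members, and the pseudogenes Krt74 and Krt8-ps were left out by their gene type. The type I cluster on chromosome 11 held 27 members and the cluster on chromosome 15 held 26, of which 25 are type II genes and 1, Krt18, is a type I gene at the end of the cluster. The measured values were broad peaks of 5-hydroxymethylcytosine (5hmC, the oxidised form of 5-methylcytosine) that overlap a gene's span with 1 kb on each side. The family was selected on these peak overlaps, in that its pattern of peaks was known when it was proposed, so shares of genes with a peak are descriptions and were not tested.

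The cells were wild-type (WT) prospermatogonia, the germ cells of the foetal testis, at E17.5. DNA came from 30000 frozen cells pooled from several embryos, and 50 ng entered the assay. In 5hmC-Seal a tagged glucose is put on 5hmC and the tagged DNA is captured on streptavidin. Of the 2 libraries, both WT and both from batch 1, 1 was made after capture and 1 from DNA taken ahead of it, and only the peak list of the captured library was used here. With 1 captured library no spread between replicates exists, the read depth is unknown, and no test across samples was possible. Intervals are exact (Clopper-Pearson for shares, Poisson for densities), at 95%, and cover counting error only. Neighbouring genes and peaks are not independent of each other.

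Keratins are the intermediate filament proteins of epithelial cells. A filament is built from pairs of a type I (acidic) and a type II (basic to neutral) keratin, and each epithelium uses its own pairs, such as Krt8 with Krt18 in simple epithelia, Krt5 with Krt14 in basal layers and Krt1 with Krt10 in the layers above. Other keratins form the shaft of the hair and the inner root sheath around it. Germ cells are not epithelial, and the peak list measures a DNA modification and not expression, so it cannot show which keratins these cells transcribe. It cannot check cell identity either. A peak was found at 7 of 10 germ cell marker genes and at 5 of 10 markers of gonadal somatic cells, both near the 63.6% of all protein-coding genes.

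Most keratin genes carried 5hmC peaks, nearly all of them weak. A peak was present at 45 of the 53 keratin genes, or 84.9% (72.4 to 93.3), against 63.6% of all 21779 protein-coding genes. Gene length, chromosome and keratin identity move together here, since keratin genes were short, with a median span of 7070 bp against 17217 bp for all protein-coding genes. Among 2538 protein-coding genes of 5117 to 9482 bp, the interquartile range of keratin lengths, 55.4% had a peak. The 27 keratin genes of 5117 to 9482 bp had one in 74.1% of cases (53.7 to 88.9). Of all genes of 5117 to 9482 bp, those on chromosome 11 reached 64.4% (58.1 to 70.3) and those on chromosome 15 reached 70.3% (60.9 to 78.6). The keratin share at this length lay within 10 percentage points of both, and its interval covered both. These 27 genes hold 7 of the 8 members without a peak, however. Among the shorter and longer members only Krt6b lacked one, and those members were not matched by length. The comparison therefore does not speak for the whole family. Over the whole keratin length range, 2812 to 50624 bp, 65.7% of 13684 protein-coding genes had a peak.

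Few peaks at genes were strong, at keratins as elsewhere. A −log10 q of at least 3 was reached by 12.0% of the keratin peaks, against 14.1% of all peaks at protein-coding genes. With a deposited −log10 q of at least 3, peaks were left at 8 keratin genes (15.1%; 6.75 to 27.6), against 23.5% of all protein-coding genes. Of the 27 keratin genes of 5117 to 9482 bp, 2 (7.41%) had such a peak, against 10.2% of all protein-coding genes of that length, 12.6% of those on chromosome 11 and 11.7% of those on chromosome 15. With at least 5, only Krt20 kept a peak (1.89%; 0.0478 to 10.07), against 9.19% of all protein-coding genes. Of the 27 keratin genes of 5117 to 9482 bp none did, 0 of 27 (0% to 12.8%), against 2.29% of all protein-coding genes of that length. The share over all 53 keratin genes was thus above that of all genes with the full list and below it at both stricter thresholds, where its intervals covered that share.

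**Figure D1:**
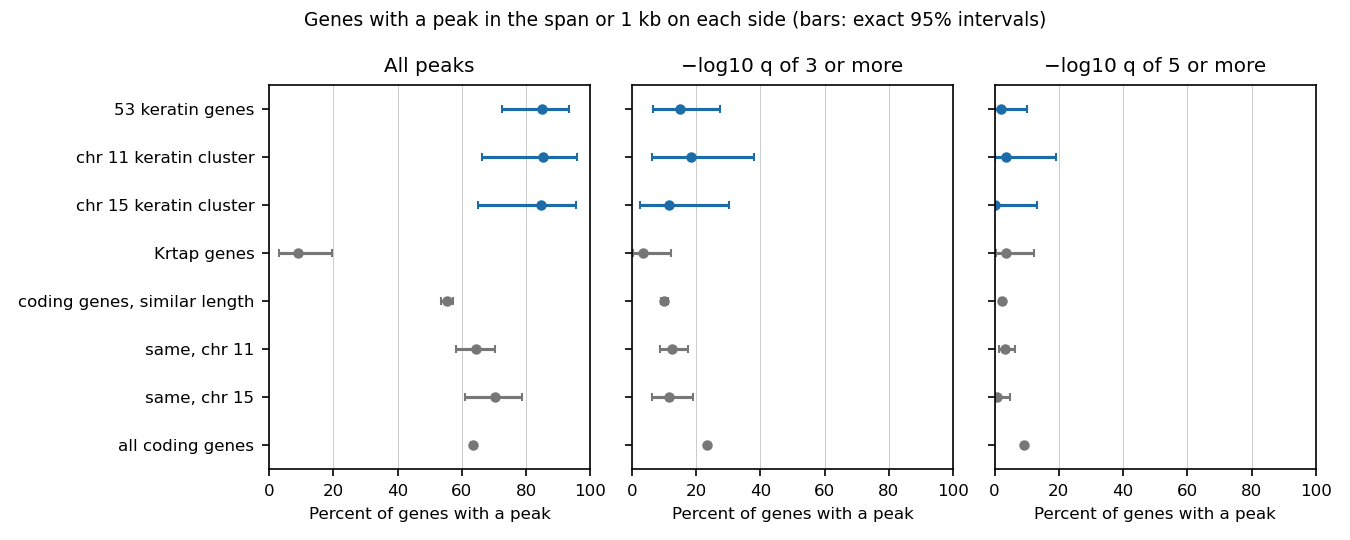
Percent of genes with a peak in the span or 1 kb on each side (horizontal axis), for keratin genes (blue) and other gene groups (grey), with all peaks and at 2 stricter thresholds; bars are exact 95% intervals. Keratin genes sit at 84.9% with all peaks and at 1.89% with a −log10 q of 5 or more.

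Both clusters had peaks at nearly the same share of their genes. In the chromosome 11 cluster 23 of 27 genes (85.2%; 66.3 to 95.8) had one, and in the chromosome 15 cluster 22 of 26 (84.6%; 65.1 to 95.6), where all protein-coding genes of those chromosomes stood at 70.7% and 78.2%. At a −log10 q of at least 3 the counts were 5 of 27 and 3 of 26, against 21.8% of all protein-coding genes on chromosome 11 and 28.4% on chromosome 15. Peaks at chromosome 11 members were somewhat stronger, but not throughout that cluster. Their median fold enrichment, the authors' ratio of captured signal to assumed background, was 3.41 over 33 peaks (2.76 to 5.39), against 3.21 over 42 peaks at chromosome 15 members (2.75 to 4.39). The ranges overlap, and the medians of all peaks at protein-coding genes were 3.21 on chromosome 11 and 3.25 on chromosome 15. Within the chromosome 11 cluster the median was 3.72 from Krt33a to Krt42 and 3.20 from Krt222 to Krt40. The latter was near the chromosome 15 values, 3.27 from Krt80 to Krt75 and 3.19 from Krt6b to Krt18. A −log10 q of at least 3 was reached by 5 of the 33 peaks and by 4 of the 42, with intervals of 5.11% to 31.9% and 2.66% to 22.6%.

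In all, 75 distinct peaks lay at the 45 genes. They had a median width of 748 bp, from 226 to 2983 bp, and a median fold of 3.26, close to the 3.24 of the 58596 peaks at protein-coding genes. The neighbours Krt90 and Krt75 shared 1 peak, and Krt78 and Krt8 another, so that 77 pairs of gene and peak arose from 75 peaks. There were 26 genes with 1 peak, 12 with 2 and 7 with 3 or more. Krt78 had 7, but its annotated span of 50624 bp is the longest of the family. All 7 lay upstream of the RefSeq start site used here for Krt78, the nearest 884 bp from it. Per 10 kb of span and flanks the density was 1.39 peaks at keratin genes and 0.553 at all protein-coding genes. At 5117 to 9482 bp it was 1.13 at keratin genes and 0.897 at all protein-coding genes, with 1.04 on chromosome 11 and 1.22 on chromosome 15. Peaks covered a median of 9.58% of the keratin spans, against 2.25% over all protein-coding genes. At 5117 to 9482 bp the medians were 7.96% for keratin genes and 3.36% for all protein-coding genes, with 7.66% on chromosome 11 and 8.72% on chromosome 15. At this length the keratin density and coverage thus lay between those of the genes of both chromosomes. The 6 peaks that also touched a non-coding gene were those of Krt222, Krt24, Krt12 and Krt80, and they cannot be given to the keratin gene alone.

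**Figure D2:**
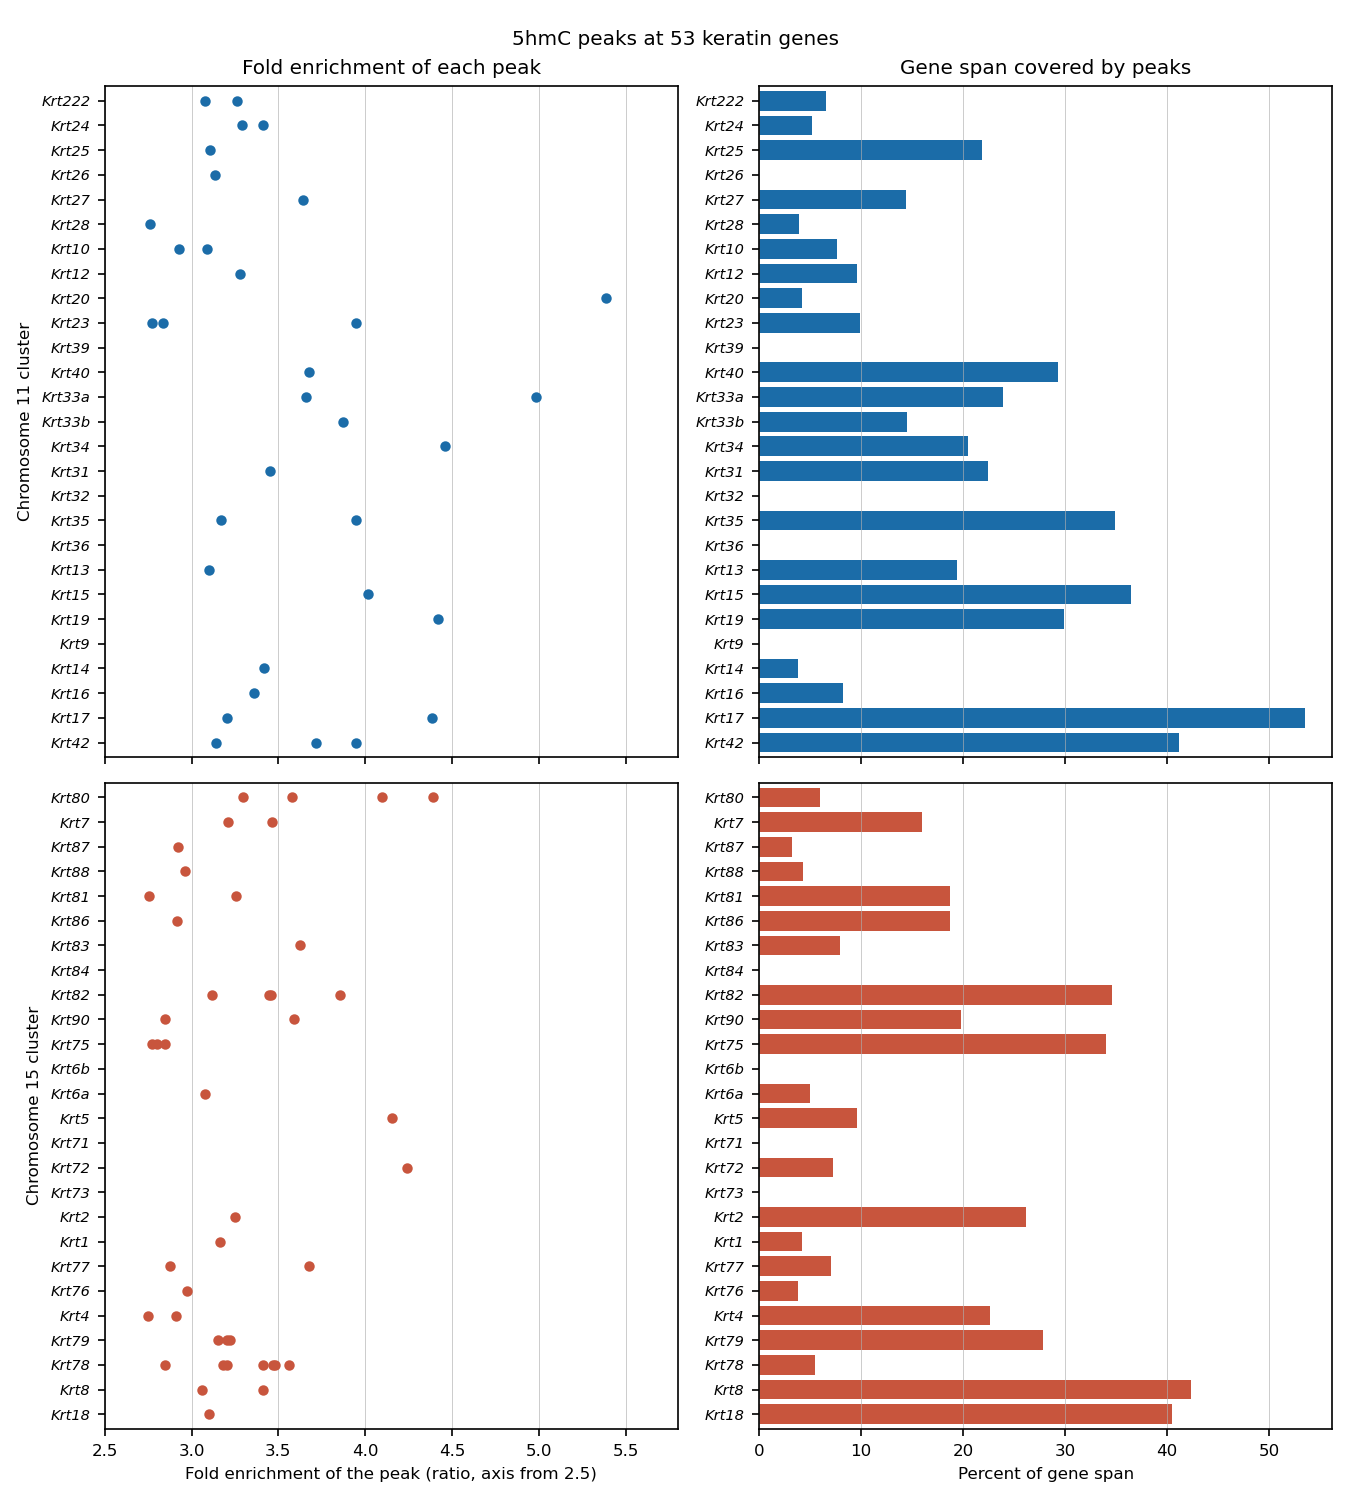
Left, fold enrichment of each peak (ratio) at each of the 53 keratin genes; right, percent of the gene span covered by peaks. Genes run in chromosome order, chromosome 11 (blue) above chromosome 15 (red); Krt20 has the highest fold, 5.39, and Krt17 the largest covered share, 53.5%.

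Keratins of simple epithelia had peaks at all 7 members of their list, Krt20, Krt19, Krt23, Krt80, Krt7, Krt8 and Krt18, beside 84.9% over the family and 63.6% over all protein-coding genes. With 5 to 15 genes in each, this and the other groups by role are too small for their shares to be set apart from one another. In this group the placing of Krt23 and Krt80 is the least certain. The highest fold of the family stood at Krt20, a keratin of the intestinal and bladder lining. Its peak of 408 bp on chromosome 11, from 99430667 to 99431074, had a fold of 5.39 and a −log10 q of 5.58, and lay 7079 bp from the start site at the upper end of the gene. At Krt19, a type I keratin of ducts and simple epithelia, a peak of 1954 bp crossed the lower end of the gene with a fold of 4.42 and covered 29.9% of the span. Krt80 had 4 peaks with folds of 3.29 to 4.39, the strongest 236 bp wide.

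Krt8 and Krt18, partners in the earliest embryonic epithelia and neighbours on chromosome 15, were covered over 42.4% and 40.5% of their spans, but by weak peaks. Krt8 had peaks of fold 3.41 and 3.06, with −log10 q of 1.91 and 1.42. Krt18 had 1 peak of 1542 bp with fold 3.10 and −log10 q of 1.47. A stronger peak of fold 4.97, from 102006259 to 102006636, lay between both genes, 1917 bp from Krt8, and touched the annotated gene Gm36026. Krt7, another type II keratin of simple epithelia, had folds of 3.46 and 3.21, both well inside its span of 15404 bp.

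Keratins of stratified epithelia had peaks at 14 of 15 members (63.6% over all protein-coding genes), the exception being Krt9, the keratin of palm and sole skin, whose nearest peak was 14098 bp away. The basal pair was unequal in fold, with 4.16 at Krt5 (−log10 q of 3.30) and 3.42 at Krt14 (1.90). The suprabasal pair had 3.16 at Krt1 and 3.09 at Krt10, both under a −log10 q of 3. Krt15, a basal keratin of the hair follicle stem cell region, was covered over 36.4% by 1 peak of fold 4.02. The remaining members with a peak were Krt24, Krt12, Krt13, Krt2, Krt76, Krt4, Krt77, Krt78 and Krt79, and their highest folds ran from 2.91 at Krt4 to 3.68 at Krt77. Krt5 was the only one of the 15 with a peak at a −log10 q of 3 or more. Krt12, the corneal keratin, had 3.28, and Krt13 and Krt4, the pair of the oesophagus and other internal stratified linings, had 3.10 and 2.91.

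Among keratins of epithelial appendages and of activated epidermis, 4 of 5 had a peak (63.6% over all protein-coding genes). Krt17, which is induced in wounded and hyperproliferative skin, had the largest covered share of the family at 53.5%, from peaks of fold 4.39 (2295 bp) and 3.20 (858 bp). Its inducible relative Krt16 had 3.36 over 8.25% of the span. Krt6a had 1 peak of fold 3.08 across its upper end, and its near copy Krt6b had none within 13797 bp. Krt75, of the companion layer of the hair follicle, had 3 peaks of fold 2.77 to 2.85 that covered 34.0%. How reads that map to several places were treated is not given in the sources used here, so peaks at near-identical copies such as Krt6a and Krt6b, Krt33a and Krt33b or the type II hair keratins are uncertain in their placing.

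Inner root sheath keratins had peaks at 5 of 7 members, 71.4%, near the 63.6% of all protein-coding genes. Krt72 led with 4.24 (−log10 q of 3.26), followed by Krt27 at 3.64, Krt26 at 3.13, Krt25 at 3.10 and Krt28 at 2.76. Krt71 and Krt73 had none. Krt26 and Krt71 mark the edge of the 1 kb rule: the peak of Krt26 began 804 bp past the gene and counted, and the nearest to Krt71 lay 1677 bp away and did not. The peak of Krt28 stood close to the lowest level of the list, a −log10 q of 1.01, as did peaks of Krt23, Krt81, Krt75 and Krt4.

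Hair shaft keratins had peaks at 11 of 15 members, 73.3%, near the 63.6% of all protein-coding genes. The type I members Krt33a (4.99), Krt34 (4.46), Krt35 (3.95), Krt33b (3.87), Krt40 (3.68) and Krt31 (3.45) all had higher folds than the type II members Krt81 (3.25), Krt86 (2.92) and Krt87 (2.92). The type II members Krt82 (3.85) and Krt83 (3.62) fell within the type I range. This split was seen in the values and was not tested. Krt39, Krt32, Krt36 and Krt84 had none, with the nearest peak 17877, 4231, 4436 and 7587 bp away. Krt82 had 4 peaks and was covered over 34.6%. The 4 members without a listed role, Krt222, Krt42, Krt88 and Krt90, all had peaks, with highest folds of 3.26, 3.94, 2.96 and 3.59.

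Within the chromosome 11 stretch from Krt33a to Krt42 the peaks recurred at like places in neighbouring genes. In Krt33a, Krt33b, Krt34 and Krt31, which lie next to each other, a peak ran from 769 to 1547, 1259 to 2161, 929 to 1791 and 966 to 1840 bp from the lower end of the gene, in that order. These genes are close relatives in sequence, and reads shared between them were not tested as a source. Over the 15 genes of this stretch, 12 of 14 peak midpoints inside a gene (85.7%; 57.2 to 98.2) lay on the lower-coordinate side of the gene's centre. In the stretches Krt222 to Krt40, Krt80 to Krt75 and Krt6b to Krt18 the shares were 53.8%, 41.2% and 40.0%. The stretch was singled out after its values were seen. For the 9 genes of the stretch with an annotated strand the lower end is the 3′ end, and 6 of their 7 midpoints lay on the 3′ side. Over all 36 members with a strand, 24 of 46 midpoints (52.2%; 36.9 to 67.1) lay on the 3′ side, against 53.3% for all protein-coding genes with a strand. These sides are those of the annotated span and not of the RefSeq start site. At Krt78, Krt10 and Krt14 that start site lies inside the span, and midpoints upstream of it were counted. The shares thus do not give positions within the transcribed part of each gene.

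**Figure D3:**
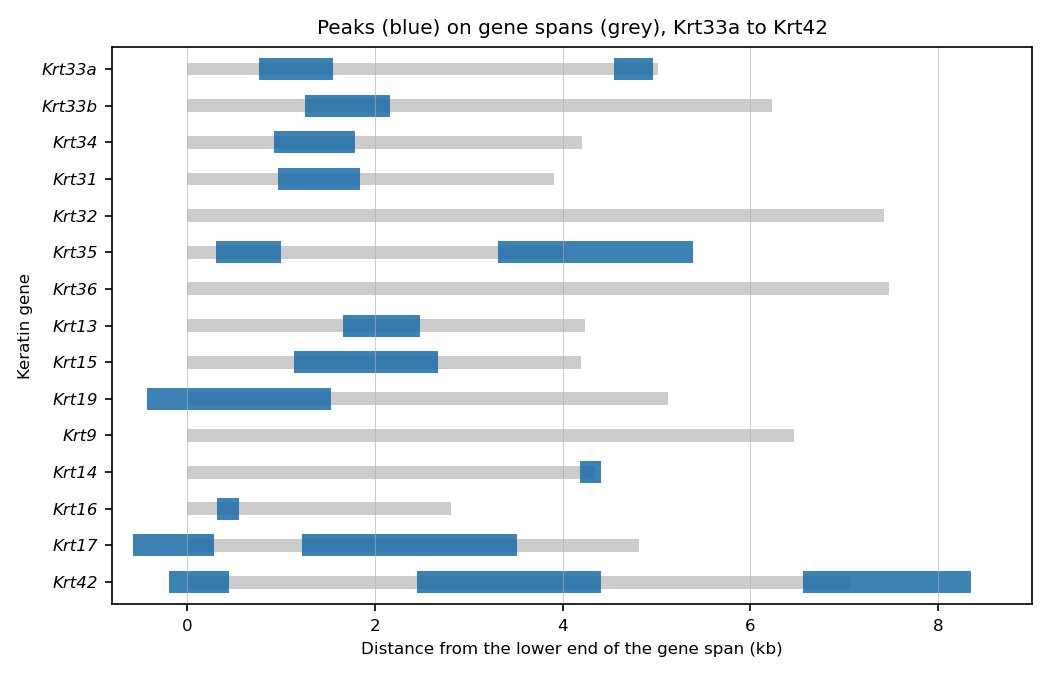
Gene spans (grey) and 5hmC peaks (blue) of the 15 keratin genes from Krt33a to Krt42, with distance from the lower end of the span in kb on the horizontal axis. In Krt33a, Krt33b, Krt34 and Krt31 a peak lies between 769 and 2161 bp; Krt32, Krt36 and Krt9 have none.

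Within both clusters, peaks covered more of the keratin genes than of the sequence between them. In the chromosome 11 cluster of 1037 kb, keratin genes with their flanks take up 22.9% of the length; peaks covered 11.8% of that part, against 1.60% of the rest. In the chromosome 15 cluster of 684 kb they take up 45.1%, with 12.0% covered inside against 2.90% outside. Much of the rest on chromosome 11 is the gap that holds the Krtap genes. Without flanks, peaks covered 13.1% of the total keratin span on chromosome 11 and 12.5% on chromosome 15. These keratin values are over members of all lengths. For protein-coding genes of 5117 to 9482 bp the values were near these, 12.2% on chromosome 11 and 12.8% on chromosome 15. Over all chromosomes, genes of that length stood at 9.84%, and the keratin genes of that length at 12.4%. Peak density over the whole cluster was 47.2 per Mb (34.95 to 62.5) on chromosome 11 and 84.8 per Mb (64.4 to 109.7) on chromosome 15. The whole chromosomes had 57.1 and 46.8 per Mb. With the full list the chromosome 15 cluster was thus denser than its chromosome, while the interval of the chromosome 11 cluster covered its chromosome's value. At a −log10 q of at least 3 the chromosome 15 cluster held 6 peaks in 684 kb, against 1033 in 100881 kb of its chromosome. With at least 5 the counts were 0 and 502, so it was not denser at either stricter threshold. With the full list, the adjoining 1 Mb on each side of the chromosome 11 cluster had 93.0 and 118 peaks per Mb, more than the cluster. Beside the chromosome 15 cluster the values were 152 per Mb before it and 68.0 after it.

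The barest stretch of the chromosome 11 cluster was that between Krt40 and Krt33a, which holds the Krtap genes. That gap of 468 kb had 9 peaks, or 19.2 per Mb (8.79 to 36.5), against 64.4 (39.3 to 99.5) from Krt222 to Krt40 and 77.3 (47.2 to 119) from Krt33a to Krt42. On chromosome 15 the 2 keratin stretches had 119.7 per Mb from Krt80 to Krt75 and 78.7 from Krt6b to Krt18. Of 38 protein-coding genes in the chromosome 11 gap, 23 of them Krtap genes, only Krtap16-1 (fold 3.83) and Gm11565 (2.95) had a peak. Genes this short seldom had one: it was 10.2% of the 2416 protein-coding genes in the length range of Krtap genes. The few peaks in the gap had a median fold of 4.08, and 4 of the 9 reached a −log10 q of at least 3. The highest, 6.39 with a −log10 q of 7.23, lay 169 kb from Krt40 in sequence without an annotated gene, and exceeded every peak at a keratin gene. In the chromosome 15 gap between Krt75 and Krt6b, Gm5414 had a peak of fold 3.10.

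**Figure D4:**
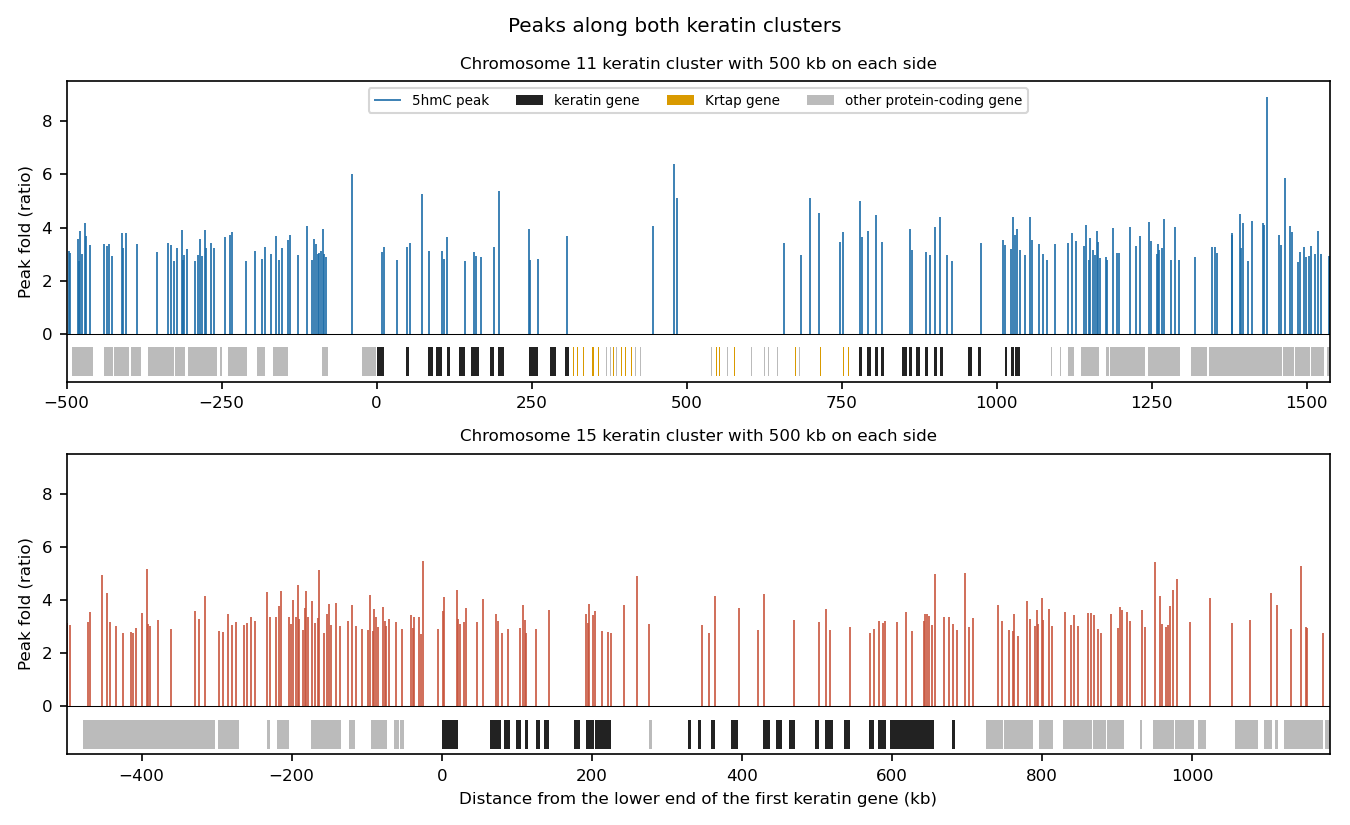
Fold enrichment of each peak (vertical lines) along the chromosome 11 cluster (top) and the chromosome 15 cluster (bottom) with 500 kb on each side; boxes below are keratin (black), Krtap (orange) and other protein-coding genes (grey). The Krtap stretch on chromosome 11 is nearly bare, at 19.2 peaks per Mb.

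Promoters could be placed for 36 of the 53 keratin genes, with 37 windows of 250 bases before and 50 after the RefSeq start site (build GRCm38.p6, the same as mm10). Keratin windows held few CpG dinucleotides, the site at which most 5-methylcytosine and 5hmC sits, with a median of 5 (2 to 21), against 13 over the 21263 windows of protein-coding genes. The windows lie within the span and flanks by which peaks were assigned, so these shares are descriptions too. A peak touched 10 of the 37 keratin windows, or 27.0% (13.8 to 44.1), against 4.01% of all windows and 7.14% of windows with fewer than 15 CpG. In the class of 5 to 9 CpG it was 37.5% of 16 keratin windows (15.2 to 64.6) against 14.3% of all 3161. In the class of 0 to 4 CpG it was 23.5% of 17 (6.81 to 49.9) against 4.37% of all 6035. Only 0.462% of all windows with 15 or more CpG had a peak. The members with a peak over the window were Krt10, Krt12, Krt23 and Krt42 on chromosome 11, and Krt82, Krt75, Krt5, Krt2, Krt76 and Krt79 on chromosome 15, with folds from 2.77 to 4.16. Of these 10 peaks only that of Krt5 reached a −log10 q of at least 3, at 3.30. The others ran from 1.02 at Krt75 to 1.97 at Krt82. The share of all windows at that threshold was not counted, and windows were not matched by chromosome or gene length. In 9 of the 10 the peak lay on the start site itself, and at Krt10 it ended 34 bp short of it. The letters TATAAA, read on both strands, were found in 51.4% of the keratin windows and in 12.6% of all windows, a description of these letters and not of a bound factor.

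**Figure D5:**
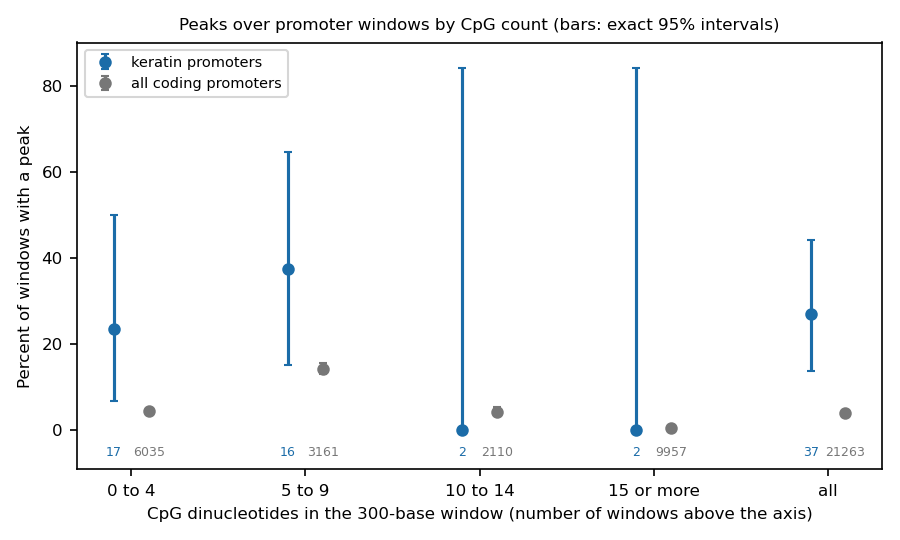
Percent of 300-base promoter windows touched by a peak (vertical axis) by CpG count, for keratin genes (blue) and all protein-coding genes (grey), with exact 95% intervals and the number of windows printed below each point. Keratin windows stand at 27.0% and all windows at 4.01%.

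The 250 bases upstream of 5 chromosome 15 keratins are shown from RefSeq with CG in capitals, to set the CpG-rich starts of Krt7 and Krt18 beside the CpG-poor starts usual in the family. Within the family the median was 6 CpG in windows with a peak and 5 in those without. No peak touched the 2 windows with 10 to 14 CpG or the 2 with 15 or more. These are too few to tell whether CpG count separates windows with a peak from those without. Krt5 and Krt82 had a peak over the start site, at folds of 4.16 and 3.44. Krt8, Krt7 and Krt18, of simple epithelia, had none over the window, and their nearest peaks began or ended 1874, 7007 and 1048 bp from the start site. This is not shared by the whole simple epithelium list, as Krt23 on chromosome 11 had a peak over its start site (fold 2.84).
Krt5 (chr15:101712906-101713155, minus strand): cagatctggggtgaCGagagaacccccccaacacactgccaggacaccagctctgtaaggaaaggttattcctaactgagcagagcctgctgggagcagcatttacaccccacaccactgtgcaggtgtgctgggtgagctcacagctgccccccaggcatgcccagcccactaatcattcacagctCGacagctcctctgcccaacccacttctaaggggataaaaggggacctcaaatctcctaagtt
Krt82 (chr15:101550660-101550909, minus strand): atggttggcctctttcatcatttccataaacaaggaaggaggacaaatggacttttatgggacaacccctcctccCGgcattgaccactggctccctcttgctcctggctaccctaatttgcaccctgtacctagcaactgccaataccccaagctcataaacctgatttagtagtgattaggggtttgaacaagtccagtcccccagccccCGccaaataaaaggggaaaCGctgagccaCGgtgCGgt
Krt8 (chr15:102004343-102004592, minus strand): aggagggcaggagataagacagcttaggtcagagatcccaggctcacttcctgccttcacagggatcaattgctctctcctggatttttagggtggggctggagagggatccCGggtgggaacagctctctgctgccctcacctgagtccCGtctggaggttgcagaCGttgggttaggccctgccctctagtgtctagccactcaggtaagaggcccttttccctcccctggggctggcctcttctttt
Krt7 (chr15:101412153-101412402, plus strand): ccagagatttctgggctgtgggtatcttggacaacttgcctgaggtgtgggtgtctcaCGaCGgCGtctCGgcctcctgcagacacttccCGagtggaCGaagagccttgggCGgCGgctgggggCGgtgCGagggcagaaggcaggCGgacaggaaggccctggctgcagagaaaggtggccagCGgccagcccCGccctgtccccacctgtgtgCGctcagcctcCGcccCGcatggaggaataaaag
Krt18 (chr15:102027966-102028215, plus strand): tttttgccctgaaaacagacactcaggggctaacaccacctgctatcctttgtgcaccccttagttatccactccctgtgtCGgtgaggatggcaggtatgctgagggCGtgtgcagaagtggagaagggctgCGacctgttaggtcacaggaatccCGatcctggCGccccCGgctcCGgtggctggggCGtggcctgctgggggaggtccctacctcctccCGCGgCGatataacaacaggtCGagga
Krt5 has 2 CG in these bases and Krt82 has 5, against 3 at Krt8, 16 at Krt7 and 12 at Krt18. Krt7 and Krt18 hold the most CpG of the 37 windows, 21 and 17, and are the only keratin windows with 15 or more. Krt5, Krt82 and Krt8 have 6 CpG each in their whole window, the first pair with a peak over it and Krt8 without.

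The shares of other genes of the filament system are each to be set beside the 63.6% of all protein-coding genes. In the lists of 15 to 18 genes the intervals overlap, so their shares are not set apart from one another. Of 15 other intermediate filament genes, 14 had a peak (68.1% to 99.8%), led by Bfsp2 of the lens fibre (8.27), the lamin gene Lmnb1 (5.78) and Vim, the vimentin gene (4.71). Desmosome and linker genes had peaks at 11 of 17 (38.3% to 85.8%), with the highest folds at Dst (5.06), Pkp4 (4.91) and the plectin gene Plec (4.61). Epidermal barrier genes had peaks at 10 of 17 (32.9% to 81.6%), with Flg2 at 6.56, Abca12 at 4.24 and Aloxe3 at 3.77. Epithelial transcription factor genes had peaks at 16 of 18 (65.3% to 98.6%), with Grhl1 at 6.28, Ovol2 at 5.87 and Dlx3 at 5.14. Of the 56 Krtap genes, whose proteins cross-link hair keratins, 5 (8.93%; 2.96 to 19.6) had a peak, near the 10.2% of genes in their length range. The highest were Krtap28-13 (9.78) and Krtap16-3 (6.25). The lists differ in gene length, with medians from 833 bp for Krtap genes to 41481 bp for desmosome and linker genes, and the part of length in their shares was not tested.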

How the data were processed

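5hmC was profiled in 1 captured library of wild-type mouse prospermatogonia; the library before capture had no file that was used here. The build was mm10, per the submitters' processing notes, which also name MACS2 2.1.0, a peak caller, Bowtie2 2.5.0, an aligner, and Trim Galore. Also named are deepTools 3.5.1, bedtools 2.27.1 and SAMtools 1.16.1. The sources used here do not give what each was used for, or its settings. The authors' deposited list holds 108395 broad peaks. For each peak the deposited columns give a fold enrichment (a ratio), a −log10 p, a −log10 q and a score; the deposited −log10 q starts at 1.01. Read depth is unknown.

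Peaks were set against gene spans of GRCm38.p6 on chromosomes 1 to 19, X and Y in Python 3.11.15 with pandas 2.3.3 and scipy 1.17.1. Genes that start in the opening 3 Mb of a chromosome other than Y were left out. A gene had a peak when at least 1 bp of a peak overlapped its span with 1 kb on each side. Strand and start sites came from RefSeq promoter windows. Cluster densities count peak midpoints. The overlap code was checked on simulated data. Every member with a peak was to be named, and of other lists the 3 genes with the highest fold. The members and lists were chosen with earlier results of these data known. Alternatives were stricter q thresholds, merged peaks, other flanks and overlaps, and other cluster limits.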

Additional observations from a re-analysis of the deposited data

How the results depend on the processing

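The caller's threshold had the widest effect. With a −log10 q of at least 3, the share of keratin genes with a peak was 15.1%, with 18.5% in the chromosome 11 cluster and 11.5% in the chromosome 15 cluster. The densities were then 9.64 and 8.78 peaks per Mb, and the median covered share was 0%. With at least 5 the shares were 1.89%, 3.70% and 0%, the densities 3.86 and 0 peaks per Mb, and the median covered share 0%. Restricting the chromosome 11 cluster to runs of keratin genes no more than 50 kb apart gave 70.3 peaks per Mb in place of 47.2. The other alternatives stayed within the counting intervals: merging peaks within 1 kb, no flank or 5 kb, an overlap of at least 100 bp, the peak midpoint, 100 kb more on each side, runs of genes on chromosome 15, and Krt18 moved to the type I genes. No paired analysis was possible because there is 1 captured library and no replicate. Depth is unknown, so genes without a peak are not shown to lack 5hmC.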
